A study of Rattus norvegicus with 12 samples.

Results

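miR-31, miR-203 and miR-205 are microRNAs of skin, mammary gland and other epithelia, and their levels were followed in rat whey during lactation and in maternal serum. They were chosen by name, as the array rows of rno-miR-31, rno-miR-203 and rno-miR-205, and are 3 of the 388 rat miRNAs on the array. Whey was taken from F344/N rats 1, 2 and 3 2, 9 and 16 days after birth, and serum from the same 3 rats on day 21, with 70 ng of total RNA on each of 12 arrays. The labels name no genotype or treatment that set groups apart other than fluid and day. The dams had been obtained on day 14 of pregnancy at 14 weeks of age, and were given oxytocin before each milking. Whey was the cell-free, fat-free and casein-free part of milk, and both fluids had been passed through filters, and no cells were counted in either fluid here.

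A miRNA is a short RNA that is cut from a hairpin precursor and guides a silencing complex to messenger RNAs, mainly through pairing of its seed, bases 2 to 8 from the 5′ end. miR-203 is known from mouse and human skin, where it restrains p63 as keratinocytes leave the basal layer. miR-205 acts with the miR-200 family in dog and human cell lines to repress the transcription factors ZEB1 and ZEB2, which keeps cells epithelial, and is found in basal cells of mouse mammary gland. miR-31 is a miRNA of epithelia such as skin and mammary gland, studied in mouse and human.

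The mature sequences, from RefSeq on the rat build GRCr8, are given 5′ to 3′ with the seed in capitals, since the seeds show that these are 3 separate families.
miR-31 (miR-31a-5p): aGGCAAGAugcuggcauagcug
miR-203 (miR-203a-3p): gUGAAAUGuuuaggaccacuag
miR-205: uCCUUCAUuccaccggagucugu
No seed was shared with any other of the 693 mature rat miRNA names in that table. The longest run of bases in common was 3 between miR-31 and either of the others, and 4 between miR-203 and miR-205. The genes lie on 3 chromosomes. The mature miR-31 is at chr5:108714906-108714927 on the minus strand, inside the gene of its hairpin, Mir31, and inside the span of the long non-coding RNA gene LOC130062807. The mature miR-203 is at chr6:137020756-137020777 on the plus strand, inside Mir203. The mature miR-205 is at chr13:107564588-107564610 on the minus strand, inside Mir205. The mature miR-31 and miR-203 also lie within the spans of a second miRNA gene each, Mir3554 and Mir3545.

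Each miRNA was measured with a shorter and a longer probe, printed on 10 spots each. The longer probe carries 1 more base at its 3′ end, in capitals below, and the probe pair is shown because most of each member's signal came from the longer one.
miR-31, shorter: cagctatgccagcatc
miR-31, longer: cagctatgccagcatcT
miR-203, shorter: ctagtggtcctaaacat
miR-203, longer: ctagtggtcctaaacatT
miR-205, shorter: cagactccggtggaa
miR-205, longer: cagactccggtggaaT
Every probe was the exact complement of 1 mature rat miRNA in the RefSeq table, its own target. The longer probes covered bases 6 to 22 of miR-31, 5 to 22 of miR-203 and 7 to 22 of miR-205, so that they rested on the 3′ part of the miRNA and reached only the last bases of the seed.

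Signals are given as the total signal of a miRNA on an array, in arbitrary units, and were not comparable between arrays as deposited. The totals over all miRNAs were between 21620 and 25457 on the day 2 arrays, between 70019.5 and 106279 on day 9, between 76070 and 119402 on day 16, and between 89211 and 160603 in serum, although each array had received the same mass of RNA. Levels called normalized are log2 values after quantile normalization over the 12 arrays, in which each array is given the same distribution of values. The arrays lay on 2 slides, 1 with days 2 and 9 and the other with day 16 and serum, so that slide and group cannot be told apart except for day 9 against day 2 and serum against day 16. Of 19 markers of blood, liver, muscle, mesenchyme, gut and kidney, 4 were detected in day 2 whey, 8 each in day 9 and day 16 whey, and 16 in serum. Their summed share of the signal was between 1.05% and 4.82% on the whey arrays and between 26.9% and 28.2% on the serum arrays.

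miR-31 was detected on all 9 whey arrays and on no serum array. On day 2 its total signal was 78.4, 103 and 97.1 in rats 1, 2 and 3. On day 9 it was 201, 285 and 241. On day 16 it was 388, 686 and 479. The signals of the 3 days did not overlap, and in each rat they were lowest on day 2 and highest on day 16. Before normalization, 71.3% of all tested miRNAs did not overlap between days 2 and 9, 73.9% between days 2 and 16 and 10.1% between days 9 and 16. In serum the signals were 2.80, 1.79 and 2.70, far below the lowest whey value, where 75% of all tested miRNAs had signals that did not overlap between serum and day 16.

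miR-203 was dim throughout, and was the only one of the 3 whose signal was highest in serum. On day 2 its total signal was 1.14, 4.35 and 3.73, without a detection call in any rat. On day 9 it was 5.55, 9.02 and 9.01, with rats 2 and 3 detected. On day 16 it was 6.07, 12.9 and 8.49, again with rats 2 and 3 detected. In serum it was 16.9, 18.8 and 21.7, detected in all 3 rats and above every whey array before normalization. Such signals did not overlap between serum and day 16 for 75% of all tested miRNAs. As a share of the total signal of its array, miR-203 was 0.0105%, 0.0153% and 0.0243% in serum. This overlapped day 2, at 0.00527%, 0.0182% and 0.0147%. Of its 60 spots in each group, 0 were well above background on day 2, 4 on day 9, 8 on day 16 and 25 in serum.

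miR-205 was detected on all 9 whey arrays and on 2 of 3 serum arrays. Its total signal was 35.3, 33.1 and 51.6 on day 2. On day 9 it was 43.8, 85.5 and 35.5. On day 16 it was 51.0, 87.1 and 69.2. The signals of the 3 days overlapped, and rat 2 was above the others on days 9 and 16. In serum the signals were 5.39, 9.92 and 9.58, below every whey array, with rats 2 and 3 called detected although only 3 of 60 spots were well above background.

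**Figure D1:**
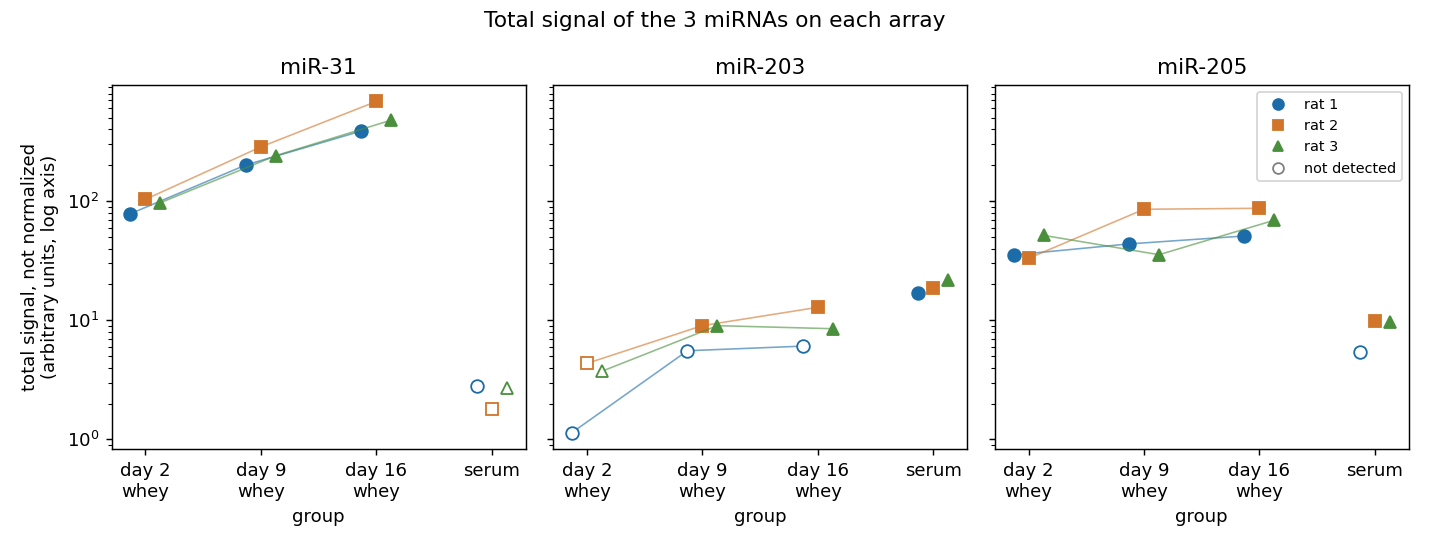
Total signal before normalization (arbitrary units, log axis) of miR-31, miR-203 and miR-205 in each group, 1 point per array, with lines joining the whey samples of a rat and open points for arrays on which the miRNA was not detected. miR-31 went from 78.4 to 103 on day 2 to 388 to 686 on day 16 and was between 1.79 and 2.80 in serum, while miR-203 was highest in serum.

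After normalization, the level of miR-31 was highest on day 16 (9.08 ± 0.04, SD, n = 3), followed by day 9 (8.16 ± 0.15), day 2 (8.01 ± 0.18) and serum (0.49 ± 0.85). Days 9 and 2 did not differ beyond their spread. It ranked between 39 and 43 of the 388 miRNAs on the day 2 arrays, between 37 and 41 on day 9, between 26 and 28 on day 16 and between 166 and 201 in serum. The serum values stood at the lowest level that was allowed, 0 on the log2 scale, in rats 1 and 2 and at 1.48 in rat 3.

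The level of miR-203 was 3.57 ± 0.60 in serum, 3.20 ± 0.10 on day 16, 3.17 ± 0.24 on day 9 and 2.53 ± 0.91 on day 2, and each neighbour in this order overlapped the next. Its rank was between 128 and 137 on the day 9 and day 16 arrays. The level of miR-205 was 6.67 ± 0.34 on day 2, 6.32 ± 0.17 on day 16, 6.16 ± 0.46 on day 9 and 2.20 ± 0.90 in serum. Its whey days overlapped, with ranks between 54 and 82, and serum stood apart with ranks between 136 and 170.

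**Figure D2:**
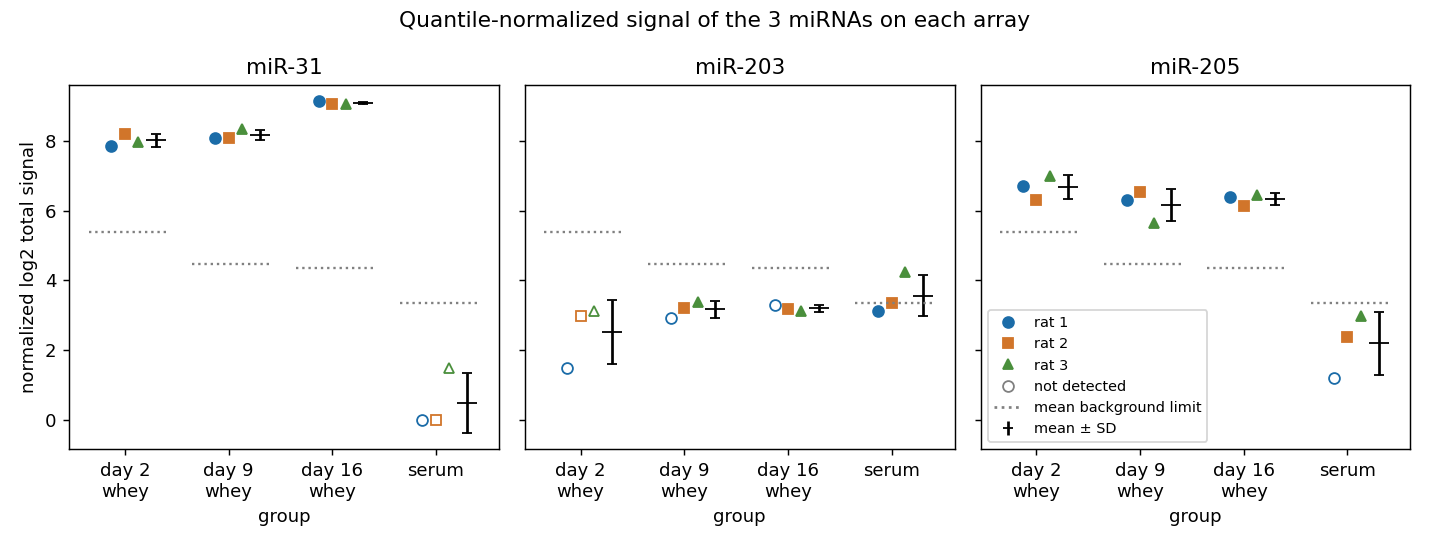
Quantile-normalized log2 total signal of the 3 miRNAs on each array, with the mean ± SD of each group of 3 in black, open points for arrays without detection, and dotted lines for the mean background limit of the group. miR-31 and miR-205 lie above the limit in whey and below it in serum, and miR-203 lies below it in whey and near it in serum.

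The first question was whether the 3 miRNAs changed in whey as lactation went on. Day 16 was compared with day 2 with limma across the 188 miRNAs that carried a detection call somewhere, with two-sided p-values adjusted by Benjamini-Hochberg over all of them. These days lay on different slides, so that slide and day cannot be told apart. miR-31 rose by 1.07 on the log2 scale (SE 0.34, 95% interval 0.30 to 1.84, adjusted p = 0.023), or 2.10-fold, with no overlap between the days, as for 61.2% of all tested miRNAs, and a higher level in 3 of 3 rats. miR-203 differed by 0.67 (SE 0.43, adjusted p = 0.23) and miR-205 by -0.35 (SE 0.41, 95% interval -1.28 to 0.58, adjusted p = 0.52). Without day 2 rat 1 the difference of miR-203 was 0.14. So 1 of the 3 was called, where 55.3% of all tested miRNAs were called in either direction and 32.4% were called higher. The call for miR-31 held in 18 of 27 alternative settings, with adjusted p between 1.4e-05 and 0.24. It was lost without day 2 rat 1 (adjusted p = 0.083), day 2 rat 3 (0.071), day 16 rat 1 (0.062) or day 16 rat 3 (0.051).

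On day 9 none of the 3 was called against day 2 by limma, where 45.2% of all tested miRNAs were. The differences were 0.16 for miR-31 (SE 0.34, adjusted p = 0.79), 0.65 for miR-203 (SE 0.43, adjusted p = 0.26) and -0.52 for miR-205 (SE 0.41, adjusted p = 0.36). Without day 2 rat 1 that of miR-203 was 0.12. None had an unadjusted p under 0.05 either. These days lay on the same slide. With only their 6 arrays in the fit, the adjusted p-values were 0.42, 0.39 and 0.27.

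From day 9 to day 16, on different slides, again none of the 3 was called, where 7.45% of all tested miRNAs were. miR-31 differed by 0.91 (SE 0.34, 95% interval 0.15 to 1.68, unadjusted p = 0.024, adjusted p = 0.12), with no overlap and a higher level in 3 of 3 rats, as 27.1% of all tested miRNAs did not overlap between these days. It passed the threshold in 6 of 27 alternative settings, with adjusted p between 0.0012 and 0.62. The spread in this fit is shared with serum, where rats 1 and 2 were at the lowest level allowed and rat 3 was not. With serum rat 3 left out the adjusted p was 0.0032, without rat 1 or rat 2 of serum it was 0.097 and 0.082, and without any 1 of the whey arrays it was between 0.15 and 0.25. With only the 6 arrays of days 9 and 16 it was 0.011. miR-203 differed by 0.02 (SE 0.43) and miR-205 by 0.16 (SE 0.41), both with adjusted p above 0.9.

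The size and for some members the sign of the changes in whey followed the scaling between arrays, which moved all miRNAs together. Before normalization miR-31 was 4.95-fold, 6.63-fold and 4.93-fold higher on day 16 than on day 2 in rats 1, 2 and 3, and 2.57-fold, 2.76-fold and 2.48-fold higher on day 9. As a share of the total signal of its array, miR-31 was 0.362%, 0.433% and 0.381% on day 2, 0.225%, 0.268% and 0.344% on day 9, and 0.510%, 0.575% and 0.466% on day 16. By this share day 9 was the lowest of the 3 days and day 16 still the highest. Under scaling to the total signal, 14 of all tested miRNAs were called higher and 68 lower on day 9 against day 2, so that a lower share on day 9 was common. miR-1224 alone took between 22.6% and 52.6% of the total on the whey arrays.

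For miR-205 the sign against day 2 turned with the scaling. Its signals before normalization gave a mean log2 difference of 0.38 for day 9 and 0.78 for day 16 against day 2, neither past the threshold (adjusted p = 0.44 and 0.096). Scaled to the total signal, a setting added after the data were seen, the differences were -1.51 and -1.27 (adjusted p = 0.0097 and 0.022). Its share of the total signal was between 0.139% and 0.203% on day 2 and between 0.0489% and 0.0804% on day 9. Under the same scaling miR-31 differed by -0.51 on day 9 (adjusted p = 0.15) and by 0.40 on day 16 (adjusted p = 0.24), and miR-203 by -0.35 and -0.33.

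The median over all 188 miRNAs moved with the scaling as well. Against day 2 it was 1.13 on day 9 and 1.28 on day 16 before normalization, and -0.47 and -0.37 when scaled to the total signal. Relative to that median the members kept their places more closely. miR-31 was above it on day 16 against day 2 under all 5 scalings, by 0.77 to 1.17 on the log2 scale, and on day 9 it lay within -0.04 to 0.25 of it. miR-205 was below it under all 5, by 0.60 to 1.04 on day 9 and by 0.48 to 0.89 on day 16. miR-203 was above it by 0.12 to 0.56 on day 9 and by 0.04 to 0.54 on day 16. These positions relative to the median were added after the data were seen and carry no test.

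**Figure D3:**
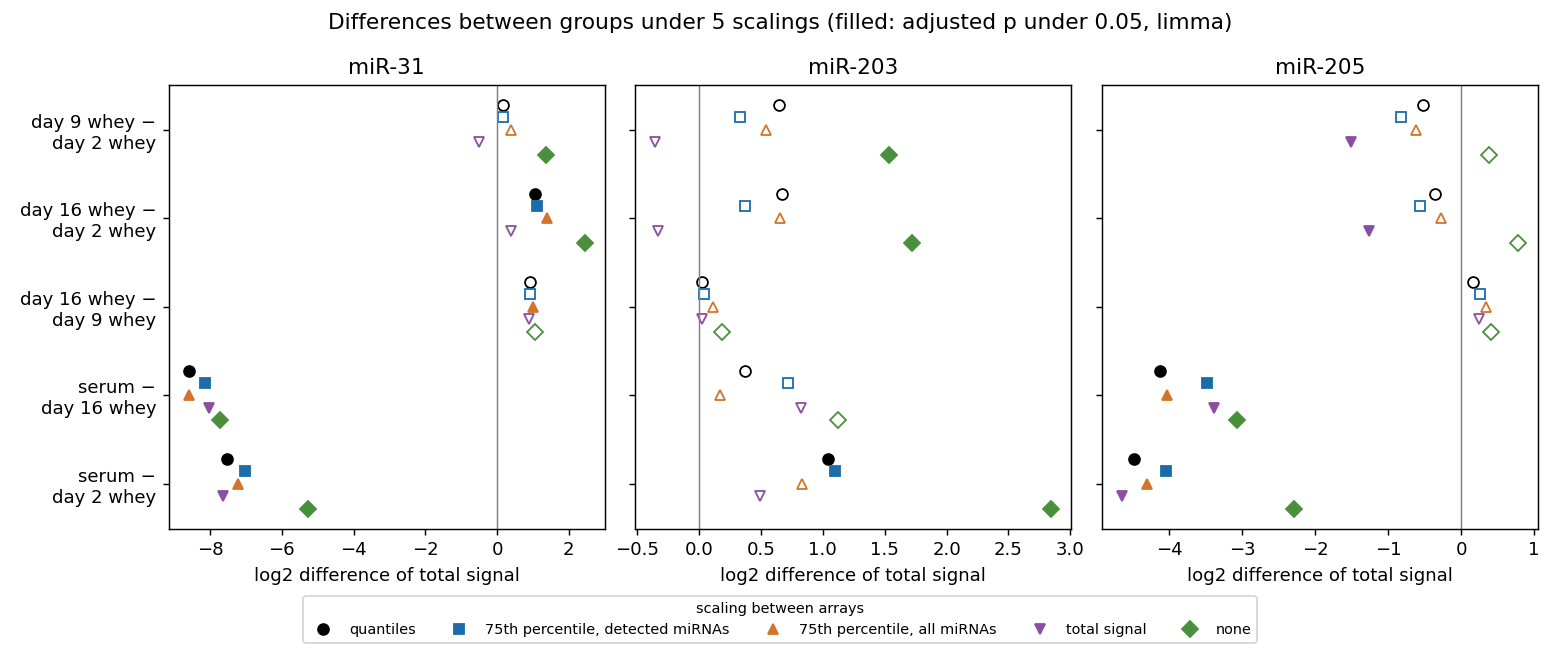
Log2 differences of total signal between groups for the 3 miRNAs under 5 scalings, filled where the adjusted p of limma was under 0.05. The serum differences of miR-31 and miR-205 keep their sign and their call under all 5, while the differences of day 9 and day 16 from day 2 spread from -0.51 to 1.38 and from 0.40 to 2.45 for miR-31 and from -1.51 to 0.38 and from -1.27 to 0.78 for miR-205.

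The change of miR-31 relative to miR-205 within an array does not depend on any factor that multiplies all signals of the array. The log2 ratio of their total signals was 1.15, 1.64 and 0.91 on day 2 in rats 1, 2 and 3. It was 2.20, 1.74 and 2.76 on day 9, and 2.93, 2.98 and 2.79 on day 16. Before normalization the days did not overlap, and the ratio was higher in 3 of 3 rats in each of the 3 comparisons. The share of other miRNA pairs whose ratios separate the days as fully was not counted. It was higher by 1.00 on day 9 and by 1.66 on day 16 than on day 2, and by 0.66 on day 16 than on day 9. The exact two-sided permutation p, taken without the pairing by rat, was 0.1 for each, also after adjustment over the 3. With 3 samples against 3, 0.1 is the smallest value possible. This comparison was added after the data were seen. It was chosen because the 2 miRNAs differed in these data and could not pass any usual threshold, so that it is given as a description. Probes of different miRNAs need not respond equally. Quantile normalization does not multiply an array by 1 factor and did change the ratio. After it, rat 2 moved by -0.13 for miR-31 and 0.20 for miR-205 from day 2 to day 9. From day 9 to day 16 rat 3 moved by 0.72 and 0.80. The normalized ratio thus fell in these cases and rose in the other rats of both comparisons.

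**Figure D4:**
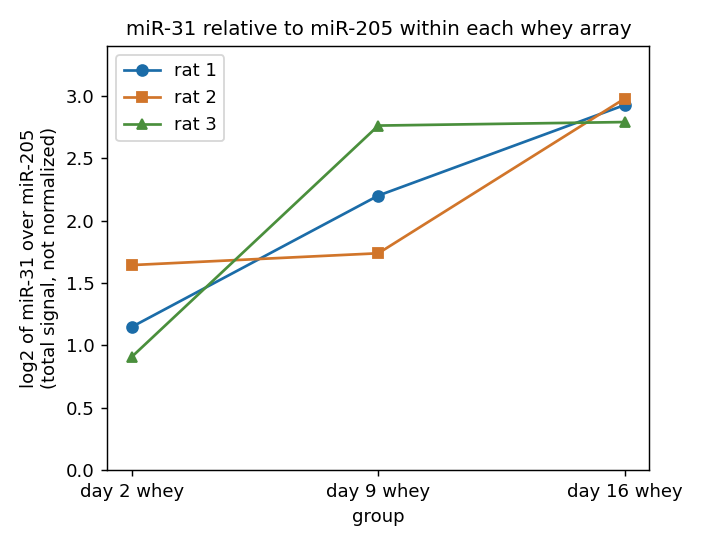
Log2 ratio of the total signals of miR-31 and miR-205 before normalization (y axis) on each of the 9 whey arrays, with lines joining the samples of a rat. The ratio is between 0.91 and 1.64 on day 2, between 1.74 and 2.76 on day 9 and between 2.79 and 2.98 on day 16.

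The second question was how whey differed from serum, the other body fluid of the same rats, again per mass of RNA. Serum was taken on day 21, later than any whey, so that fluid and day cannot be told apart. Against day 16 whey, on the same slide, serum was lower for miR-31 and miR-205, and miR-203 did not pass the test. So 2 of the 3 were called lower, where 38.8% of all tested miRNAs were called lower and 75% in either direction. Of these 2, miR-31 entered the test through its detection in whey alone. The normalized levels of the same 2 did not overlap between the fluids, as for 76.6% of all tested. In bulk fluids, fewer cells of a type releasing RNA and less RNA per cell cannot be told apart.

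On the normalized scale miR-31 was at least 52.6-fold lower in serum than in day 16 whey (adjusted p = 7.5e-09, limma), in 3 of 3 rats. The fold is a lower bound because miR-31 was not well above background on any serum array. It sets the whey mean against the background limit of each serum array, which was the lowest level on that array of any miRNA whose spots were mostly (50% or more) above background. The fitted difference in levels was -8.58 (SE 0.34). Against day 2 whey, miR-31 was at least 25.0-fold lower in serum (fitted difference -7.51, adjusted p = 1.9e-08). These bounds hold for normalized levels only. Before normalization the signal was 138-fold, 384-fold and 177-fold lower than on day 16, and 28.0-fold, 57.9-fold and 35.9-fold lower than on day 2. The serum signals were only 0.71, 0.62 and 0.79 times the software's estimate of their error in rats 1, 2 and 3. These folds before normalization are therefore not measured sizes. The difference from day 16 passed the threshold in all 27 alternative settings, from -9.05 to -2.89, and with only the 6 arrays of that slide the adjusted p was 2.4e-05.

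On the normalized scale miR-205 was at least 7.78-fold lower in serum than in day 16 whey (fitted difference -4.13, SE 0.41, adjusted p = 7.3e-06) and at least 9.94-fold lower than in day 2 whey (-4.48, adjusted p = 4.1e-06), again in 3 of 3 rats. Before normalization the folds were smaller in part, at 9.46, 8.79 and 7.23 in rats 1, 2 and 3 against day 16 and at 6.55, 3.34 and 5.39 against day 2, so that these bounds do not hold for the signals as deposited. It was also not well above background on any serum array by its spots, although 2 of them carried a detection call. All 27 alternative settings kept the call against day 16, from -4.46 to -0.81, with an adjusted p of 0.00059 for the 6 arrays of the slide alone. The smallest differences of both miRNAs came with the normexp background correction and its offset of 50, which compresses dim signals.

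miR-203 differed by 0.37 between serum and day 16 whey (SE 0.43, 95% interval -0.59 to 1.33, adjusted p = 0.45). Serum was higher in 2 of 3 rats after normalization and in 3 of 3 before it, by 2.78-fold, 1.47-fold and 2.55-fold. Against day 2 whey miR-203 rose by 1.04 in serum (SE 0.43, adjusted p = 0.045, limma), with a higher level in 3 of 3 rats and with overlapping groups. All 3 members were thus called in this comparison, as were 83% of all tested miRNAs. miR-203 was not well above background on any day 2 array, and the mean background limit there, 5.37, was above its level in serum, so that no fold is given. This call was kept in 10 of 27 alternative settings. It was lost without any 1 of the day 9 or day 16 arrays, day 2 rat 1, serum rat 2 or serum rat 3, with adjusted p between 0.054 and 0.17.

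The 19 markers of blood and other tissues had a summed share of 26.9% to 28.2% in serum. In day 16 whey it was 3.1% to 3.41%. Not every marker was higher in serum. The summed signal of the 4 mesenchymal markers overlapped, at 1850 to 3866 in serum and 2308 to 3402 in day 16 whey. Of these, miR-143 had a lower normalized level in serum (9.28 ± 0.22) than in day 16 whey (11.40 ± 0.20). miR-145 and miR-194 were detected on no array. The erythrocyte miRNA miR-451 was the brightest in serum, at 13.4% to 17.3% of the signal. The other erythroid marker that was measured, miR-144, was detected on no array. Of the 4 leukocyte markers all were detected on all 3 serum arrays. The part of the 19 markers in the results for miR-31, miR-203 and miR-205 was not tested.

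Both probes of each miRNA were compared because the total signal sums over them. The longer probe carried between 74.8% and 78.7% of the total signal of miR-31 on the whey arrays and between 73.0% and 85.9% of that of miR-205. For miR-203 its share was between 86.8% and 133% on whey and serum arrays, above 100% where the shorter probe had a negative signal after background subtraction. On day 16 the longer probe of miR-31 had a mean spot signal of 553 ± 160 (SD, n = 3) and the shorter probe 161 ± 48.0. On day 2 they had 95.1 ± 10.02 and 32.0 ± 6.85, so that the longer probe was 5.82-fold and the shorter 5.04-fold brighter on day 16, before normalization.

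In serum the longer probe of miR-31 had 4.74 ± 0.71 and the shorter -0.69 ± 0.63, and none of their 60 spots was well above background. For miR-203 every spot that was well above background came from the longer probe, 25 of 30 in serum, and its mean was 26.2 ± 2.84 in serum, 12.6 ± 4.58 on day 16, 10.9 ± 1.42 on day 9 and 4.88 ± 2.24 on day 2. The shorter probe of miR-203 stayed between -0.57 and 3.68 on all 12 arrays. For miR-205 the longer probe had 30 of 30 spots well above background on each whey day, and the shorter 11, 14 and 17 of 30 on days 2, 9 and 16. Spots and probes are repeated measures of the same sample and were not used as replicates.

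**Figure D5:**
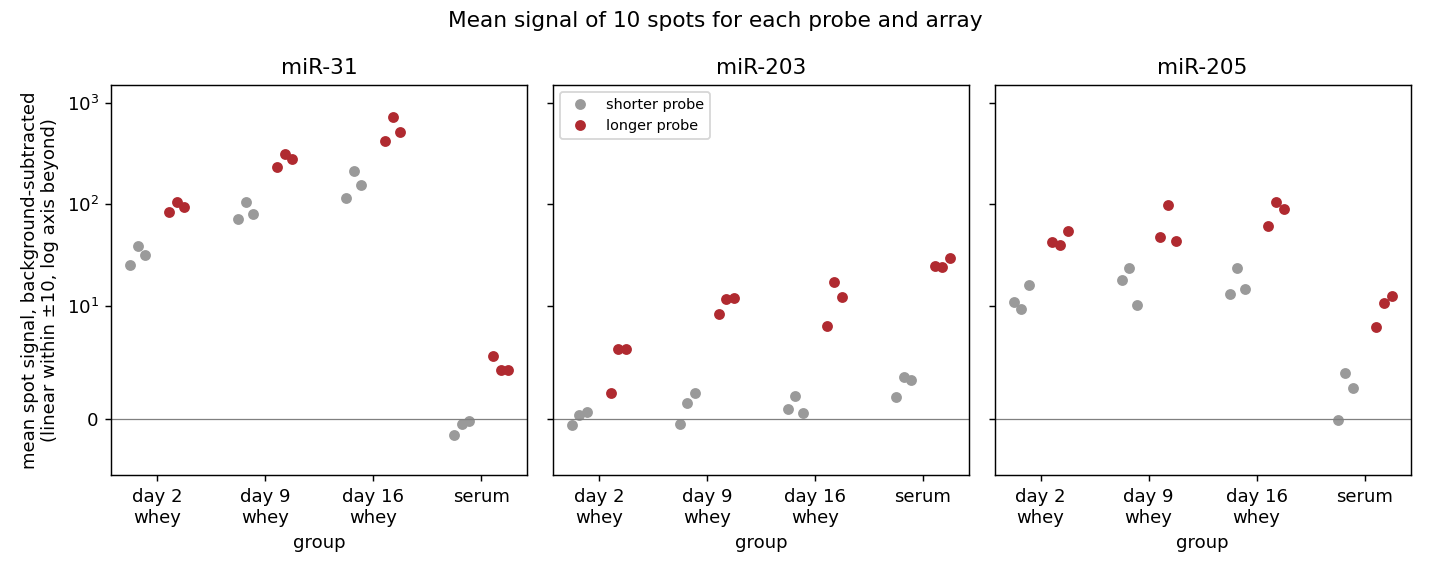
Mean background-subtracted signal of the 10 spots of each probe (y axis linear within 10 units of 0 and logarithmic beyond) on each array, with the shorter probe in grey and the longer probe in red. The longer probe is brighter on all 12 arrays for each miRNA, and the shorter probe of miR-203 stays between -0.57 and 3.68.

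By itself, the shorter probe of miR-31 gave differences of 0.49 for day 9 against day 2 (adjusted p = 0.0050) and 0.50 for day 16 against day 9 (adjusted p = 0.019), both called. The longer probe alone gave 0.80 for day 16 against day 2, which was not called (adjusted p = 0.066). Neither probe of miR-203 alone was called between serum and day 2 whey (adjusted p = 0.34 for the shorter and 0.098 for the longer). Both probes alone gave miR-31 and miR-205 lower in serum than in whey, with each call kept.

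The likeness of the members to each other depended on whether serum was included. Over the 12 arrays Pearson's r of their normalized levels was 0.96, which places miR-31 in place 7 of 185 miRNAs for miR-205. Over the 9 whey arrays alone it was -0.34. With miR-203, r was -0.35 over 12 arrays and 0.48 over the whey arrays for miR-31, and -0.41 and -0.42 for miR-205. The points of these correlations share arrays, rats and the normalization, and the 12 fall into whey and serum, so that r is given as a description only.

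The miRNAs most like miR-31 over 12 arrays were miR-96, miR-200c and miR-103 (r between 0.990 and 0.993). Those most like miR-205 were miR-183, miR-322 and miR-1224 (r between 0.97 and 0.98), of which miR-1224 had the highest signal on all 9 whey arrays. The most like miR-203 were miR-30e*, miR-192 and miR-465, at lower r of 0.84, 0.72 and 0.70. All 3 of these had, like miR-203, no detection on day 2 and detection on all 3 serum arrays.

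Within whey other miRNAs came first. miR-26a, miR-146b and miR-29b were the most like miR-31 over the 9 whey arrays (r of 0.95, 0.94 and 0.91). miR-146b, a regulator of inflammatory signalling, had levels of 8.23 ± 0.14, 8.35 ± 0.36 and 9.24 ± 0.08 on days 2, 9 and 16, so that its step also lay between days 9 and 16. miR-29b, which targets collagen genes, had 5.74 ± 0.25, 6.80 ± 0.27 and 7.75 ± 0.04. For miR-205 the nearest in whey were miR-125b-5p, miR-143 and miR-204 (r of 0.88, 0.85 and 0.81). miR-143, a mesenchymal marker, had 11.59 ± 0.23, 10.90 ± 1.45 and 11.40 ± 0.20, with the widest spread on day 9, as miR-205 had among the whey days. Its part in the values of miR-205 was not tested. For miR-203 they were miR-28, miR-101b and miR-96 (r of 0.81, 0.79 and 0.74).

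A list of 15 other miRNAs was grouped here as epithelial, without a check that each is particular to epithelia. The 15 were the miR-200 family, which restrains ZEB1 and ZEB2, the miR-183 cluster, miR-375, miR-34 and miR-449, and miR-221 and miR-222. Of the list, 12 were detected on at least 1 array and tested. In serum 9 of the 12 were lower than in day 16 whey, none was higher and 3, miR-34a, miR-221 and miR-182, did not pass the test. The median difference was -4.46 against 0.11 over all 188 tested, of which 38.8% were called lower and 75% in either direction. The list was chosen with earlier results of these data known. Among the 9, miR-141, miR-96 and miR-34b were detected on no serum array and entered the test through whey alone. miR-34b was not well above background in either fluid, nor was miR-182 among the 3. On the normalized scale, miR-141 had 9.76 ± 0.21 in day 16 whey, was detected on no serum array and was at least 84.5-fold lower there (adjusted p = 5.1e-11, limma). miR-96 was at least 13.03-fold lower. miR-200c and miR-200a were detected in both fluids and were lower in serum by 6.63 (SE 0.21) and 5.87 (SE 0.46) on the log2 scale. miR-31 and miR-205 shared this direction and miR-203 did not.

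Across lactation few of the same list changed. On day 16 against day 2, 3 of the 12 were higher, miR-96, miR-34a and miR-34b, 1 was lower, miR-183, and 8 did not pass the test. The median was 0.32 against 0.13 over all tested, of which 32.4% were called higher and 22.9% lower. miR-34b was not well above background on either day. miR-183 and miR-96, which are made from 1 cluster, moved apart, at -0.73 (SE 0.19, adjusted p = 0.0076) and 0.78 (SE 0.15, adjusted p = 0.0018). On day 9 against day 2 only miR-34a of the 12 was higher, where 28.2% of all tested miRNAs were. Between days 9 and 16 none of the 12 passed the test, where only 7.45% of all tested did.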

How the data were processed

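RNA was labelled with cyanine 3 and hybridized to 1-colour Agilent rat miRNA arrays (miRBase 14.0). The authors extracted the scans with Agilent Feature Extraction 9.5.3.1, and the deposited files hold, per array, an intensity for each spot and a total signal intensity and detection call for each miRNA, all after subtraction of background but before any scaling of arrays against each other. The value table of the series holds the processed spot intensity (8475 of 8475 spots within 1% on each array). The authors' quantile-normalized log2 values were deposited in 12 columns that name no sample, and these were left out. Here the total signals were normalized by quantiles over 12 arrays, raised to a floor of 1 and put on the log2 scale. limma 3.58.1 (R 4.3.3) fitted 4 group means to 188 miRNAs with a detection call on any array. An adjusted p under 0.05 (Benjamini-Hochberg) was called, two-sided, in 5 comparisons. The fit was tested on simulated data. The members and lists were chosen with earlier results of these data known. Named beside the members were the 3 miRNAs with the highest correlation to each, over 12 and over 9 whey arrays, and the 4 of the epithelial list with the largest serum difference. A miRNA was above background on an array when at least 50% of the spots of a probe were. Rats 1 to 3 pair the samples by the labels. Same-rat deviations correlated at -0.07 to 0.43 (median 0.04, 18 pairs), and the rat as a block was an alternative, as were other scalings, floors, filters, background corrections, single probes and leaving out each array. No 2 arrays of 66 pairs were identical. With 3 arrays per group their number limits the precision. Tables were made in Python 3.11.15 with pandas 2.3.3, numpy 2.4.6 and scipy 1.17.1, and figures with matplotlib 3.10.9.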

Additional observations from a re-analysis of the deposited data

How the results depend on the processing

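The lower levels of miR-31 and miR-205 in serum kept their direction and their call in all 27 alternatives, scaling to the total signal among them, which was added after the data were seen. Over all comparisons, 353 repeats of the members' tests kept direction and side of the threshold, 26 fell below it, 13 passed it and 13 turned their sign. The causes were not tested.

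Without normalization miR-31 and miR-203 passed the threshold on day 9 against day 2 (1.38 and 1.54) and miR-203 on day 16 (1.72), and miR-205 turned to 0.38 and 0.78. Scaled to the total signal, day 9 against day 2 was -0.51 for miR-31, -0.35 for miR-203 and -1.51 for miR-205, day 16 was 0.40, -0.33 and -1.27, and miR-203 in serum against day 2 was 0.49. Under normexp miR-31 was 0.53 for day 9 against day 2 and 0.82 for day 16 against day 9, both called, miR-205 turned to 0.055 and 0.14 against day 2, miR-203 turned to -0.018 between days 9 and 16, and its serum difference from day 2 fell to 0.065. From the series value table miR-31 on day 16 against day 2 was 1.15 (adjusted p = 0.054) and miR-203 between days 9 and 16 was -0.37. With no filter on dim miRNAs or with Tukey-Kramer, the calls of miR-31 on day 16 against day 2 (1.07, adjusted p = 0.058 and 0.14) and of miR-203 in serum against day 2 (1.04, adjusted p = 0.11 and 0.22) were lost. The latter was also lost with only the compared arrays (1.04, adjusted p = 0.14), the 75th percentile of all miRNAs (0.83), and the shorter or the longer probe alone (0.44 and 0.66). miR-31 passed on day 16 against day 9 with a floor of 5 or only the compared arrays (both 0.91), with that percentile (1.00) and with the shorter probe (0.50). The shorter probe also gave a call of 0.49 for miR-31 on day 9 against day 2 and turned miR-205 to -0.27 between days 9 and 16, and the longer gave 0.80 for miR-31 on day 16 against day 2.

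Leaving out 1 array at a time, miR-31 ranged from 0.99 to 1.17 for day 16 against day 2 and from 0.87 to 0.98 for day 16 against day 9. Against day 2, miR-203 ranged from 0.12 to 0.94 on day 9 and from 0.14 to 0.96 on day 16, lowest without day 2 rat 1 in both. miR-203 ranged from -0.10 to 0.13 and miR-205 from -0.10 to 0.34 for day 16 against day 9, and miR-203 from 0.51 to 1.33 for serum against day 2. The 14 calls between days 9 and 16 ranged from 8, without day 9 rat 1, to 20. They were 27 with the 75th percentile of all miRNAs (21 higher and 6 lower, against 8 and 6), 22 with a floor of 5, 1 with Tukey-Kramer, and 0 in limma without normalization or scaled to the total signal, against 46 at an unadjusted p under 0.05 in the main setting. The split of calls on day 9 against day 2 moved from 53 higher and 32 lower to 93 and 12 without normalization and 14 and 68 with the total signal. On day 16 against day 2 it moved from 61 and 43 to 104 and 15 and to 22 and 68. Without normalization it moved from 75 and 81 to 117 and 25 for serum against day 2, and from 68 and 73 to 86 and 47 for serum against day 16, which was 81 and 58 with the 75th percentile taken over always detected miRNAs and 83 and 54 with the total signal.

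With the rat as a replicate block, the adjusted p of miR-31 on day 16 against day 2 (1.07) was 0.025, and the block changed no call of the 3 miRNAs and no count by over 1.5 times. By the share of all spots well above background, 0 arrays detected miR-203, against 7 by the software. Signals of miR-203 in whey and of miR-31 and miR-205 in serum lay near background, which limits how small a difference could be seen.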
